A study of Mus musculus with 12 samples.

Results

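The genes described here encode the factors that start protein synthesis: the subunits of the eIF complexes, the proteins that bind and block the cap-binding factor eIF4E, and the kinases that phosphorylate eIF2. They were chosen by name. Of 35385 gene symbols in the deposited tables, 64 began with Eif and a digit. Pseudogene symbols (10) and Eif2s3y were left out, which gave 53 candidates, and 49 of these reached at least 1 TPM in at least 3 of the 12 libraries and were analysed. TPM (transcript abundance scaled within a library) is a level per length of transcript, so levels of different genes can be set side by side. The other 4 candidates were below this limit. Eif2ak3, which encodes PERK, the eIF2 kinase of the endoplasmic reticulum, was listed at 0 to 1.60 TPM and at exactly 0 in 4 libraries. Eif2b5, the catalytic subunit of eIF2B, was listed at 0 to 1.17 TPM and at 0 in 4 libraries. Eif4e3 reached 1.07 TPM and Eif4e1b, a form of eIF4E known from oocytes, 0.0363 TPM.

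RNA came from OPCs, oligodendrocyte progenitor cells that give rise to the cells that form myelin, made here from mouse pluripotent stem cells (mPSC). The cells had attached for 1 h in differentiation permissive medium and were then exposed for 4 h to vehicle, dimethyl sulfoxide (DMSO), or to a quaternary ammonium compound. There were 3 of these: cetylpyridinium chloride (CPC, which carries a pyridinium ring), C12-C14-Alkyl(ethylbenzyl)dimethylammonium chloride (AEBDAC, which carries a benzyl ring) and methyltrioctylammonium chloride (MTOAC, which has no aromatic ring). The dose of a compound was its IC75, so doses differed between compounds, and the labels give no concentrations. The design has 4 groups of 3 libraries. Since nothing in the labels says that replicates were separate cultures, a p-value here speaks only of the spread among libraries, which may be technical. No genotype, strain or sex of the cells is given in the labels.

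In the cell, eIF2 bound to GTP brings the initiator tRNA to the small ribosomal subunit, and eIF2B reloads it with GTP after each round. The kinases HRI, PKR, PERK and GCN2 phosphorylate eIF2 under heme loss and mitochondrial stress, double-stranded RNA, endoplasmic reticulum stress and amino acid shortage. Phosphorylated eIF2 blocks eIF2B, which lowers most protein synthesis while the transcription factor ATF4 is translated more. A second control acts at the mRNA cap, where eIF4E, eIF4G and the helicase eIF4A form eIF4F, and the eIF4E-binding proteins compete with eIF4G unless the kinase mTORC1 phosphorylates them. In the oligodendrocyte lineage this machinery is known above all because inherited defects of eIF2B cause a disease of white matter. Transcript levels do not show the phosphorylation of either protein.

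Among the libraries, vehicle library 1 stood apart: the sum over mitochondrially encoded genes was 86422 TPM in it and 147539 to 183001 TPM in the rest. The labels state at least 20 M reads for a library, and TPM hold no further trace of depth. The 8 OPC markers were all tested, and their sum ran from 1967 to 2347 TPM in vehicle, 1577 to 1728 TPM with CPC, 1459 to 1726 TPM with AEBDAC and 1248 to 1357 TPM with MTOAC, and 3 of them were called in at least 1 comparison with vehicle. None of 5 microglial and none of 5 mesenchymal markers reached the limit for testing, and 1 of 5 pluripotency markers did. The 4 astrocyte markers tested of 5 were not called. The 5 neuronal markers, of which 1 was called, summed to 424 to 470 TPM in vehicle, 324 to 389 TPM with CPC, 307 to 345 TPM with AEBDAC and 258 to 341 TPM with MTOAC. The share of all tested genes called in at least 1 comparison with vehicle was not computed. Whether the counts of called markers exceed it is therefore not known. In RNA from bulk cultures, fewer cells of a type and less RNA per cell cannot be told apart, and what part these shifts have in the values given here was not tested.

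Sequence upstream of the genes was searched for TGATGNAA on both strands, the core letters of the composite C/EBP-ATF element that ATF4 binds, because Atf4 was called higher with AEBDAC and MTOAC. RefSeq promoters (build GRCm38.p6) were at hand for 40 of the 49 genes, in 53 windows of 250 bases before a RefSeq start. The letters occurred in 1.89% of these windows and in 3.45% of 32851 windows of the same length over all genes. Only Eif2s3x, the X-linked gene of the eIF2 gamma subunit, held them, 96 bases before its RefSeq start on the opposite strand. It is shown with Eif4h, the gene called lower with MTOAC, whose window did not hold them. The GENCODE M21 annotation (GRCm38), used for gene coordinates here, starts both genes further upstream. By it, 211 of the 250 bases of the Eif2s3x window lie inside the gene, with the match at chrX:94212740-94212747 among them but in no exon, and so do 81 of the 250 bases of the Eif4h window. The last 58 and 81 bases, which GENCODE counts as untranslated first exon, are not printed, so 192 and 169 bases are shown. The printed Eif2s3x stretch still spans the GENCODE gene start (chrX:94212862), so it is not free of exon bases. Sequences run 5′ to 3′ on the gene's strand, and capitals mark the match.
Eif2s3x, chrX:94212710-94212901, minus strand: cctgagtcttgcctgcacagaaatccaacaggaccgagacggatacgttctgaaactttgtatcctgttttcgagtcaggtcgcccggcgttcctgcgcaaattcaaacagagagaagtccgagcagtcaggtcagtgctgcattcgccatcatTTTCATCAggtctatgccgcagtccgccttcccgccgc
Eif4h, chr5:134639491-134639659, minus strand: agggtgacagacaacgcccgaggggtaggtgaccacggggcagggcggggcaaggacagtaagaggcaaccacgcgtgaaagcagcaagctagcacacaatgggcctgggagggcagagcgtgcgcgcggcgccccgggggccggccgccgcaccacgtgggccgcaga
A match is a description of letters and shows no binding. The genes without an entry were Eif1a, Eif2b3, Eif3e, Eif3h, Eif3i, Eif4ebp1, Eif4ebp3, Eif4g2 and Eif6.

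Across the 49 genes, 1 was called higher with AEBDAC and with MTOAC, the eIF4E-binding protein gene Eif4ebp1, and 1 was called lower with MTOAC, the helicase cofactor gene Eif4h. A gene was called at an adjusted p under 0.05 in limma on log2(TPM + 1), adjusted over all 12009 genes tested. With CPC, limma called 0 of the 49 in either direction, where 0.0333% of all genes were called higher and 0.0333% lower. With AEBDAC 1 was called higher (0.391% of all genes) and 0 lower (0.883%). With MTOAC 1 was called higher (0.791%) and 1 lower (5.75%). At an unadjusted p under 0.05, 5 of the 49 passed with CPC (10.2%, against 13.6% of all genes), 5 with AEBDAC (10.2%, against 19.2%) and 9 with MTOAC (18.4%, against 24.4%). Without vehicle library 1 the called members numbered 0 with CPC, 0 with AEBDAC and 1, Eif4ebp1, with MTOAC. The 3 comparisons share the same vehicle libraries and are not independent of each other.

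The middle of the group lay slightly below vehicle, and less far below it than the middle of all genes. The median log2 fold change of the 49 was -0.11 with CPC, -0.06 with AEBDAC and -0.03 with MTOAC, beside -0.17, -0.16 and -0.22 for all tested genes. Without the filter on low values, the median of the members relative to the median gene turned from 0.06 to -0.05 with CPC and from 0.10 to -0.01 with AEBDAC, and went from 0.19 to 0.04 with MTOAC. A positive fold change was found for 18, 20 and 22 of the 49 (36.7%, 40.8% and 44.9%), beside 28.9%, 33% and 28.3% of all genes. These shifts of the median gene lie in every fold change below and vanish under quantile normalization, so small negative values have to be read relative to them. Groups that did not overlap with vehicle were found with CPC for 2 genes above (2.58% of all genes) and 6 below (18%). With AEBDAC there were 5 above (5.65%) and 5 below (19.2%), and with MTOAC 5 above (3.99%) and 7 below (22.4%). Eif4ebp1 was above the shared vehicle libraries with each compound, and Eif2ak1, Eif3j1 and Eif4h were below them with each. The share of all genes that lay apart from vehicle with all 3 compounds at once was not computed. Whether these genes exceed it is therefore not known. The plot of fold changes by role shows most genes near the dashed median line, with wide intervals for a few.

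**Figure D1:**
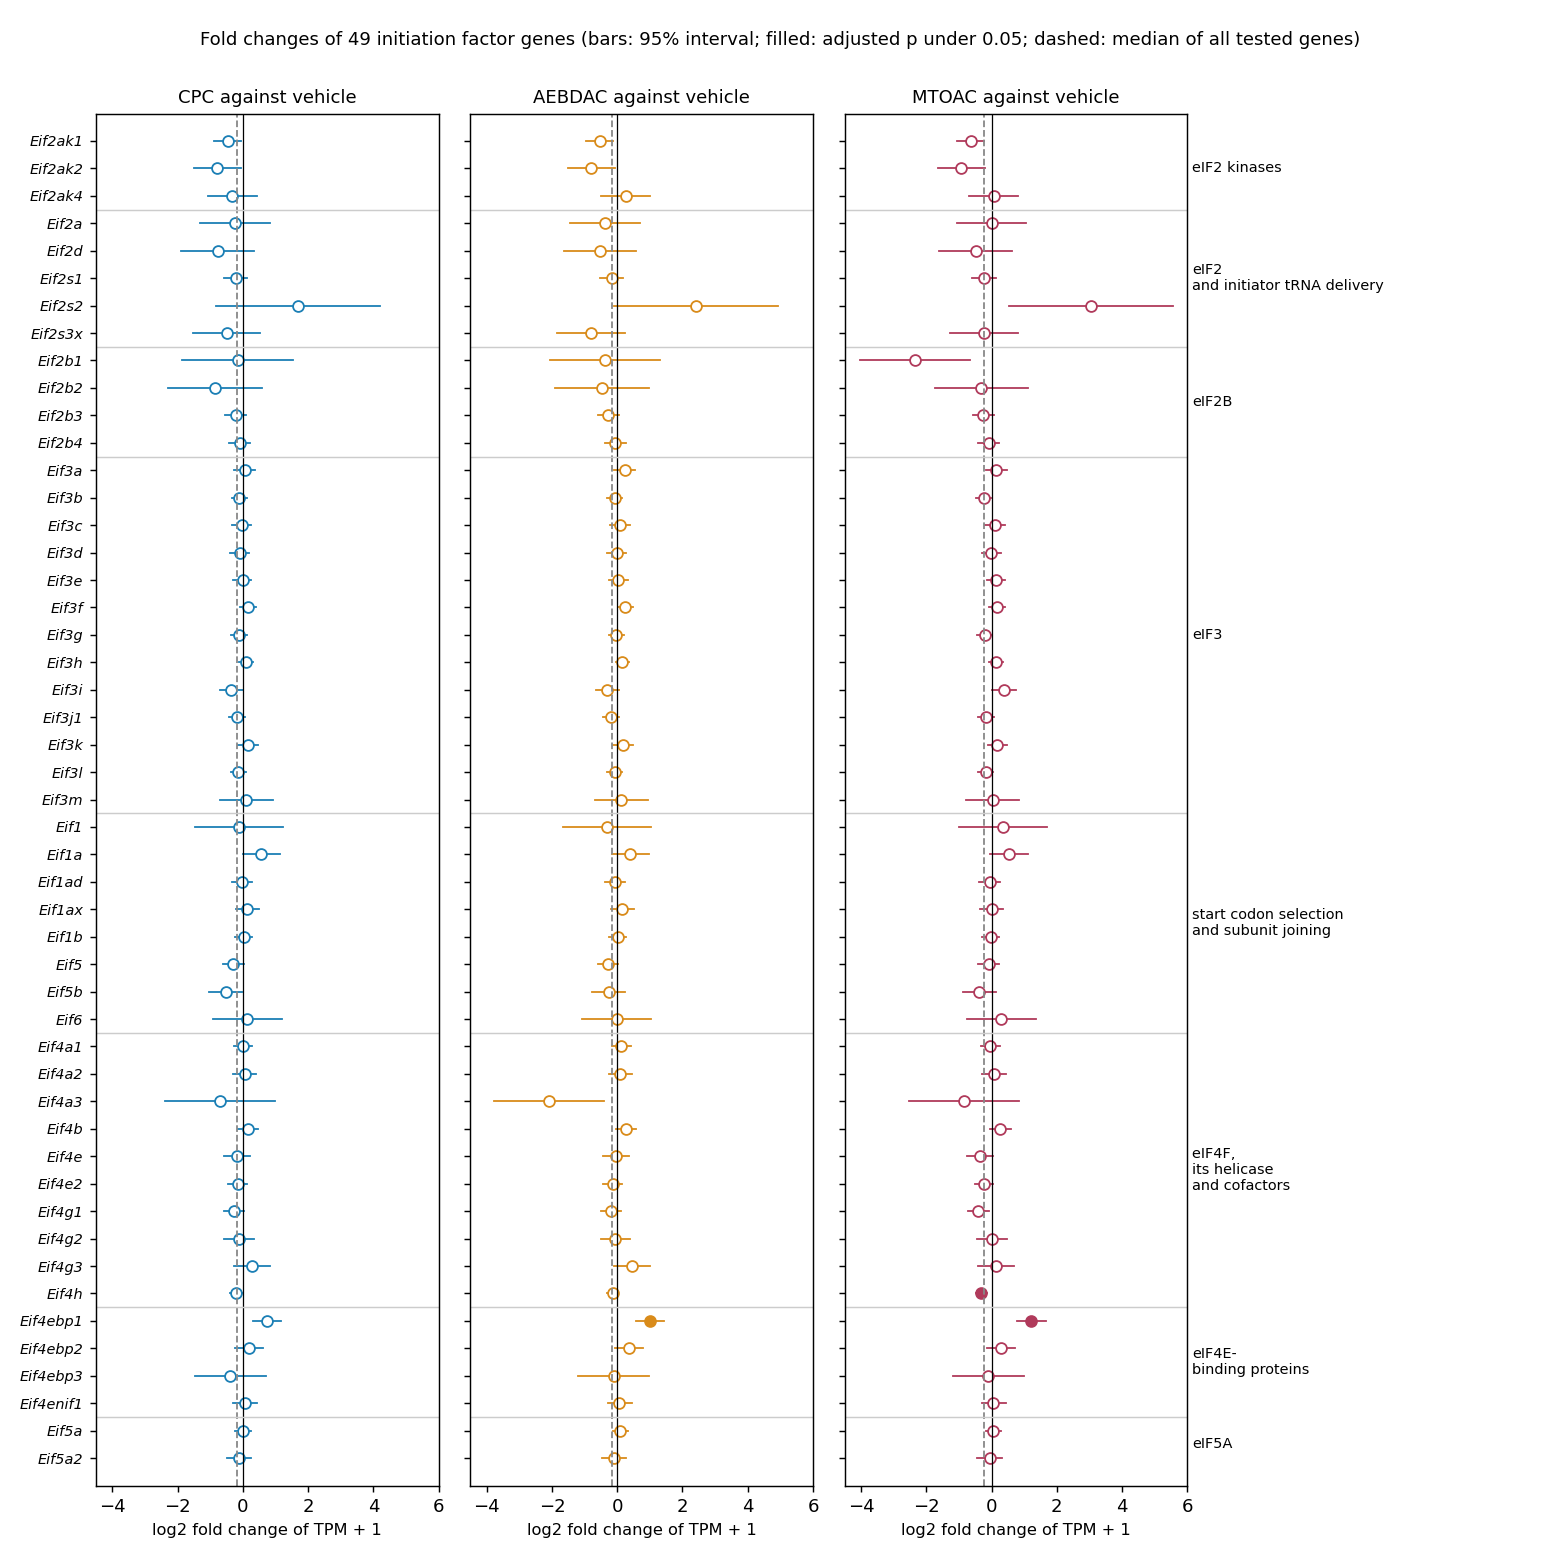
Log2 fold change of TPM + 1 (x axis) of each of the 49 genes (y axis, by role) for each compound against vehicle, with 95% intervals from limma. Filled points passed the test (Eif4ebp1 with AEBDAC and MTOAC, Eif4h with MTOAC) and the dashed line is the median of all tested genes (-0.17, -0.16 and -0.22).

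In vehicle the mean levels ran from 1.35 to 1172 TPM. Eif5a, an elongation and termination factor once counted with initiation, was at the top with 1172 ± 51.3 TPM (SD, n = 3), followed by the helicase Eif4a1 with 800 ± 107 TPM and Eif4g2, a relative of eIF4G that works without eIF4E, with 601 ± 188 TPM. The ranges of Eif4a1 (687 to 900 TPM) and Eif4g2 (482 to 818 TPM) overlapped, so their order is not firm. Of the 13 eIF3 genes 10 lay between 119.8 and 378 TPM, while Eif3m, Eif3j1 and Eif3i stood at 26.5, 23.7 and 15.9 TPM. The eIF2 kinases were low: Eif2ak1 at 28.0 ± 6.80 TPM, Eif2ak2 at 10.9 ± 2.48 TPM and Eif2ak4 at 1.55 ± 0.582 TPM. Eif4ebp1 (59.8 ± 9.72 TPM) was the most abundant of the genes for proteins that block eIF4E, above Eif4ebp2 (12.5 ± 1.93 TPM), and its range did not overlap with that gene's. At the bottom was Eif4ebp3 with 1.35 ± 0.924 TPM. The plot of vehicle levels shows close triplets for most genes and scattered ones for Eif1, Eif2a, Eif2s2 and Eif4ebp3.

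**Figure D2:**
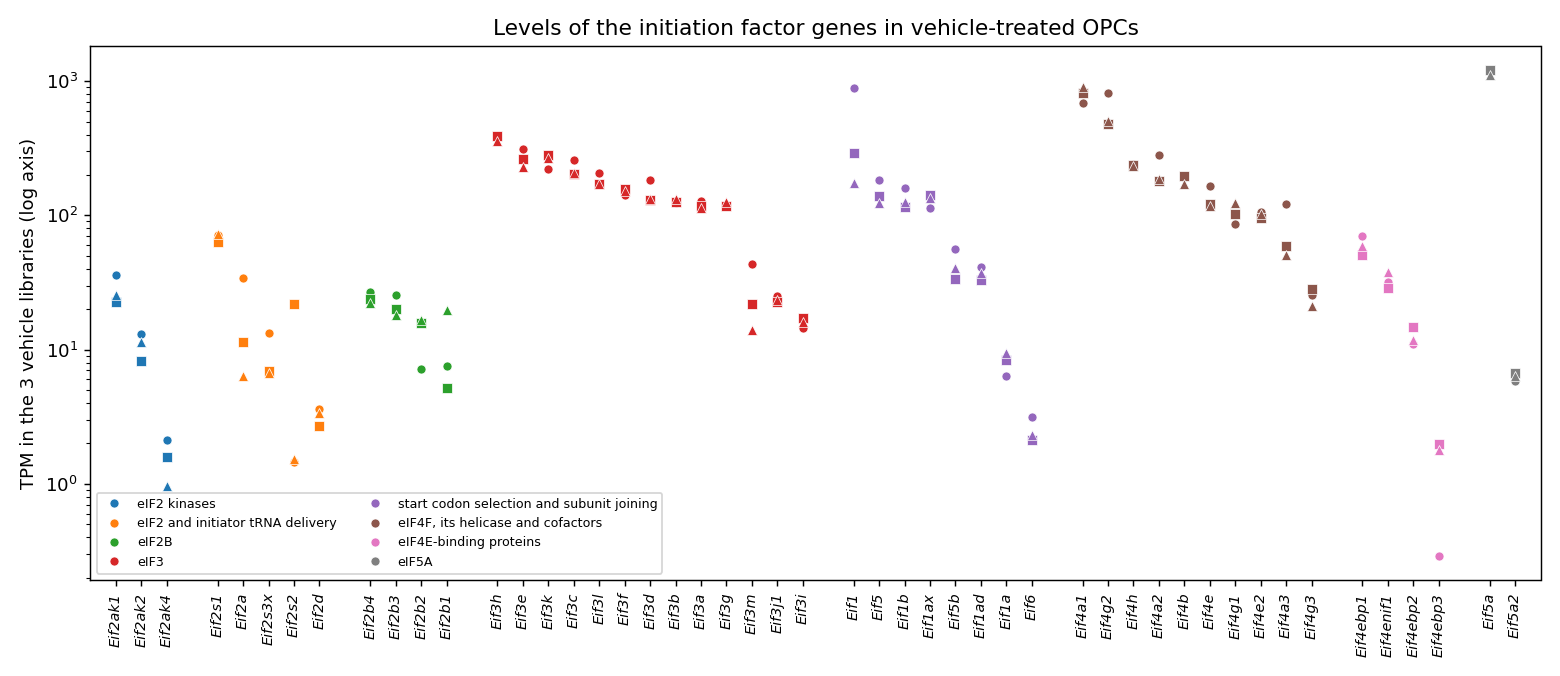
TPM (y axis, log scale) of each gene in the 3 vehicle libraries (circle replicate 1, square replicate 2, triangle replicate 3), ordered by mean within each role given by colour. Eif5a stands at the top (1172 TPM on average) and Eif4ebp3 at the bottom (1.35 TPM).

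Of the eIF2 kinase genes, none was called with any compound (limma, 3 tested). The lowest values against vehicle were those of HRI and PKR. Eif2ak1, which encodes HRI, stood at 35.6, 22.7 and 25.6 TPM in vehicle libraries 1 to 3. It stood at 20.5, 17.3 and 21.2 TPM with CPC, at 20.5, 16.2 and 19.5 TPM with AEBDAC and at 18, 14.4 and 20.2 TPM with MTOAC. All 9 treated libraries thus lay below the lowest vehicle library, and vehicle library 1 was far above the others. The log2 fold change was -0.47 ± 0.19 (SE) with CPC, -0.54 ± 0.19 with AEBDAC and -0.63 ± 0.19 with MTOAC (adjusted p = 0.319, 0.162 and 0.0677, limma). Without vehicle library 1 these became -0.29, -0.35 and -0.45, beside a median gene of -0.09, -0.07 and -0.14 in the same fits. The gene (chr5:143817788-143904251, plus strand, GRCm38) overlaps exons of Aimp2 and Ankrd61 on the other strand, and the library kit is not described as marking strand, so reads of these genes cannot be told apart.

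Eif2ak2, which encodes PKR, the kinase that senses double-stranded RNA, stood at 13.1, 8.21 and 11.4 TPM in vehicle. With CPC it stood at 8.30, 4.26 and 5.39 TPM, with AEBDAC at 8.28, 4.23 and 5.47 TPM and with MTOAC at 4.77, 3.48 and 8.25 TPM. In each treated group 1 library reached the lowest vehicle library and the other 2 were below all of vehicle. The log2 fold changes were -0.79, -0.79 and -0.92, each ± 0.33 (SE), with adjusted p = 0.331, 0.219 and 0.11 (limma). Eif2ak4, which encodes GCN2, the sensor of uncharged tRNA, was near the limit of testing, at 0.962 to 2.13 TPM in vehicle and 0.508 to 3.41 TPM in the treated libraries, and its fold changes of -0.33, 0.26 and 0.07 were smaller than the half-width of their intervals. In vehicle the order of levels was HRI, PKR and GCN2 without overlap, and PERK (at most 1.16 TPM) overlapped with GCN2. No compound raised any of the 3 tested kinase genes by an amount that passed.

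The fitted changes of the 3 subunits of eIF2 differed in sign, but none passed and differences between the subunits were not tested. Eif2s1, which encodes the alpha subunit that the kinases phosphorylate, stood at 71.2, 63.8 and 72.0 TPM in vehicle. It stood at 56.8, 67.6 and 53.1 TPM with CPC, at 64.2, 46.4 and 76.5 TPM with AEBDAC and at 56.6, 59.8 and 59.7 TPM with MTOAC. Only the MTOAC libraries lay wholly below vehicle, and the log2 fold changes of -0.22, -0.17 and -0.23 (± 0.16 SE) matched the shift of the median gene to within 0.06. Eif2s2, the beta subunit, was listed at 1.45, 22.0 and 1.52 TPM in vehicle. It was listed at 33.1, 2.47 and 39.6 TPM with CPC, at 15.3, 18.1 and 68.0 TPM with AEBDAC and at 51.8, 12.8 and 110.7 TPM with MTOAC. Libraries of 1 group differed by up to 16-fold, more than the groups did, so its fitted changes of 1.69, 2.41 and 3.05 (± 1.15 SE) did not pass (adjusted p = 0.542, 0.281 and 0.127, limma). Replicate 2 was the highest library in vehicle and the lowest with CPC and with MTOAC. Eif2s3x, the gamma subunit, with the match before its RefSeq start, stood at 6.65 to 13.3 TPM in vehicle and at 1.48 to 11.0 TPM in the treated libraries (log2 fold changes of -0.50, -0.80 and -0.23).

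Eif2a and Eif2d encode separate proteins that can deliver initiator tRNA without eIF2. Eif2a stood at 34.0, 11.3 and 6.38 TPM in vehicle and at 8.95 to 24.1 TPM in the 9 treated libraries, so only vehicle library 1 lay above the rest. Eif2d, which also acts in ribosome recycling, was low, at 2.69 to 3.62 TPM in vehicle and 0.829 to 2.08 TPM with CPC, with no overlap between them. Its log2 fold change with CPC was -0.77 ± 0.51 (SE) and did not pass (adjusted p = 0.531, limma). With AEBDAC (1.17 to 4.12 TPM) and MTOAC (0.234 to 4.05 TPM) the gene overlapped with vehicle, with fold changes of -0.53 and -0.49. The exons of both genes overlap a coding gene on the other strand (Serp1 and Rassf5).

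Of the eIF2B genes, the targets of phosphorylated eIF2, none was called (limma, 4 tested). Eif2b1, the alpha subunit of the regulatory part, was listed at 7.55, 5.14 and 19.6 TPM in vehicle. It was listed at 2.74, 14.9 and 12.1 TPM with CPC, at 4.26, 5.38 and 13.9 TPM with AEBDAC and at 0, 5.36 and 0.332 TPM with MTOAC. MTOAC libraries 1 and 3 were below every other library, while MTOAC library 2 lay within vehicle. The log2 fold change with MTOAC was -2.33 ± 0.77 (SE) and did not pass (adjusted p = 0.0895, limma). Eif2b2, the beta subunit, ranged from 2.90 to 27.9 TPM within the AEBDAC group alone. Eif2b3 and Eif2b4, the gamma and delta subunits, were steady, at 18.1 to 25.3 and 22.2 to 26.8 TPM in vehicle and 15.4 to 20.0 and 20.1 to 25.8 TPM in the treated libraries, with log2 fold changes from -0.27 to -0.22 and from -0.10 to -0.06. The panels for kinases and subunits show Eif2ak1 and Eif2ak2 at or below the lowest vehicle library in nearly all treated libraries and the erratic values of Eif2s2, Eif2b1 and Eif2b2.

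**Figure D3:**
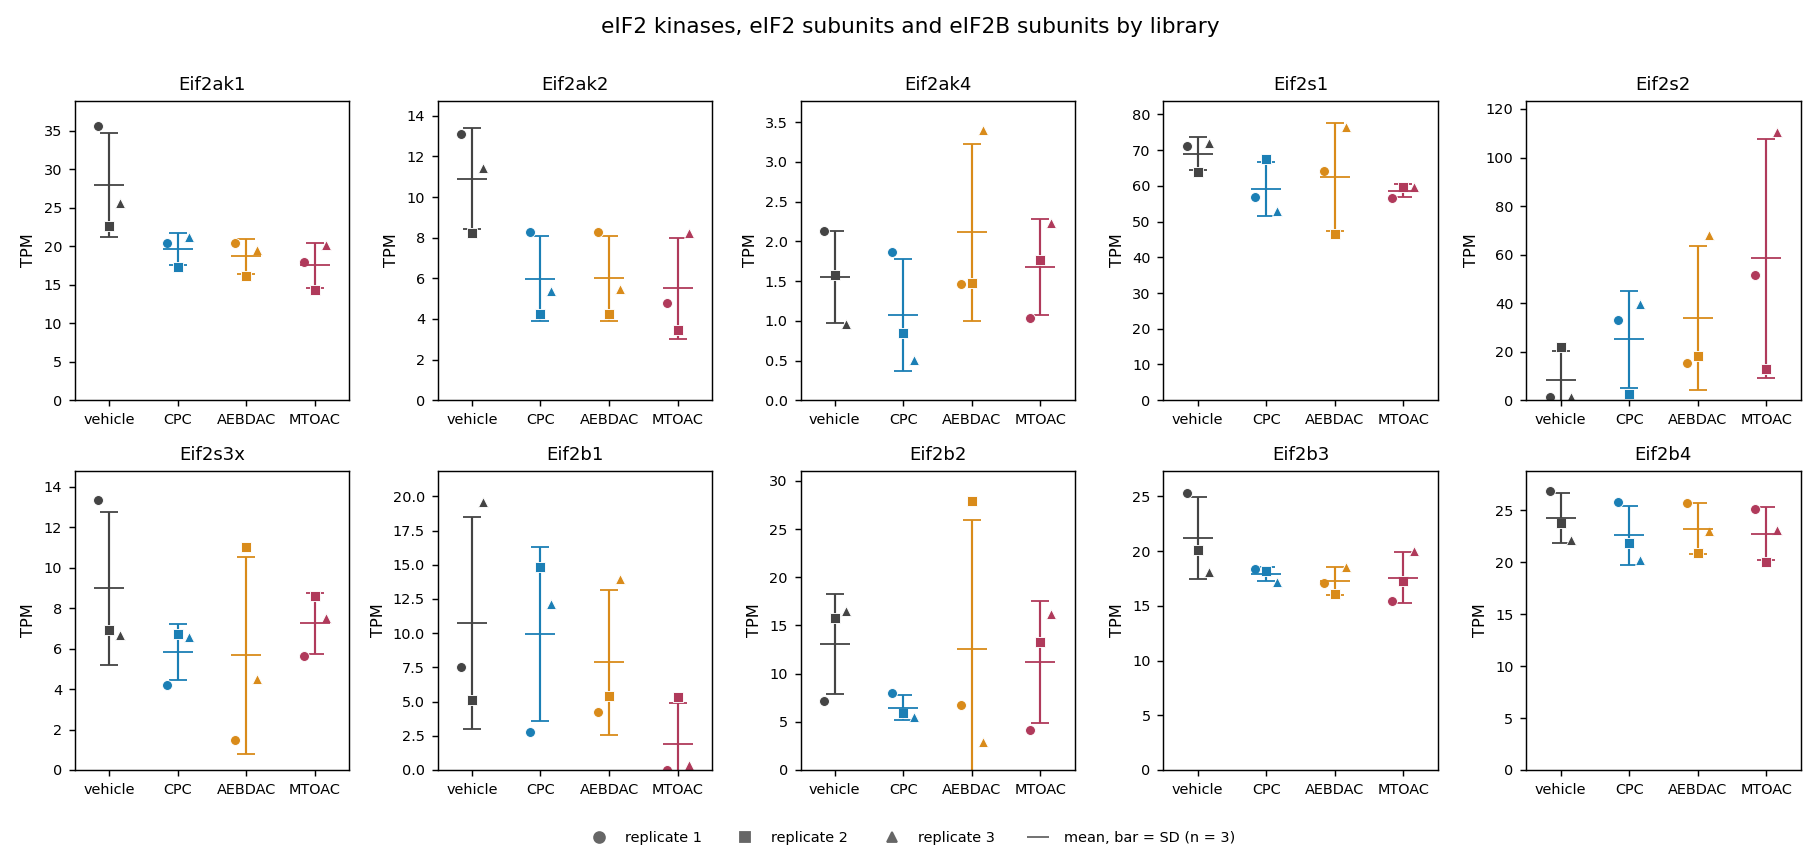
TPM (y axis, from 0) of the eIF2 kinase, eIF2 and eIF2B genes by group (x axis), with 1 symbol per library and the mean ± SD (n = 3), where bars that reach below 0 are drawn to 0. Eif2ak1 lies below its lowest vehicle library (22.7 TPM) in all 9 treated libraries, while Eif2s2 ranges from 1.45 to 110.7 TPM.

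The eIF3 genes, which encode the large scaffold that holds the small subunit and the mRNA together, differed little between groups. None of 13 was called with any compound (limma), and the medians of -0.04 with CPC, 0.04 with AEBDAC and 0.10 with MTOAC lay above the median gene. Fold changes ran from -0.35 to 0.16, from -0.30 to 0.24 and from -0.24 to 0.39. Eif3h, the most abundant, stood at 390.0, 388 and 355 TPM in vehicle, at 375, 438 and 406 TPM with CPC, at 402, 436 and 428 TPM with AEBDAC and at 392, 456 and 401 TPM with MTOAC. The AEBDAC and MTOAC libraries lay above all of vehicle, by a log2 fold change of only 0.16 and 0.14 (± 0.10 SE, adjusted p = 0.401 and 0.422, limma). Eif3f and Eif3k had the highest mean fold changes by the naming rule (0.19 and 0.17). Eif3b and the loosely bound subunit Eif3j1 had the lowest (-0.15 and -0.18). Eif3b went from 127 ± 4.23 TPM to 108 ± 9.87 TPM with MTOAC (SD, n = 3). Its log2 fold change of -0.24 did not pass (adjusted p = 0.192, limma) and was -0.02 relative to the median gene. Eif3j1 stood at 22.6 to 24.9 TPM in vehicle and 18.7 to 22.4 TPM in all treated libraries. Relative to the median gene its log2 fold changes were -0.02, -0.03 and 0.06 with CPC, AEBDAC and MTOAC. Its reads are uncertain, since the genome holds a near-identical copy, Eif3j2, and its exons overlap Spg11 on the other strand.

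Eif3i was the eIF3 gene that differed most between compounds. It stood at 14.4, 17.2 and 16.2 TPM in vehicle, at 13.8, 11.5 and 11.4 TPM with CPC, at 15.2, 10.2 and 13.1 TPM with AEBDAC and at 23.5, 20.0 and 20.0 TPM with MTOAC. The MTOAC libraries lay above all 9 others and the CPC libraries below all of vehicle. Against vehicle the log2 fold changes were -0.35, -0.30 and 0.39 (± 0.16 SE, adjusted p = 0.375, 0.342 and 0.168, limma). It is named here after its values were seen.

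Genes for start codon selection and subunit joining were not called either (8 tested, limma). Eif1, the factor that makes the ribosome reject poor start codons, ranged from 173 to 883 TPM in vehicle, with vehicle library 1 at the top, and from 209 to 1034 TPM with MTOAC. Its log2 fold changes of -0.12, -0.32 and 0.35 (± 0.61 SE) were within this spread. Eif1a stood at 6.30, 8.30 and 9.38 TPM in vehicle, at 12.8, 11.4 and 12.2 TPM with CPC, at 6.77, 10.6 and 16.8 TPM with AEBDAC and at 12.9, 10.6 and 12.3 TPM with MTOAC. CPC and MTOAC libraries lay above all of vehicle (log2 fold change 0.56 and 0.53 ± 0.26 SE, adjusted p = 0.378 and 0.235, limma). Eif1ax, which encodes nearly the same protein at a level of 114 to 143 TPM in vehicle, had fold changes of 0.14, 0.15 and 0.00, and how reads were split between the pair is not known. Eif5, which makes eIF2 hydrolyse its GTP, stood at 149 ± 30.3 TPM in vehicle and 121 ± 7.91 TPM with CPC (SD, n = 3). Its log2 fold changes were -0.29, -0.28 and -0.09, and each treated group overlapped with vehicle. Eif5b, the GTPase that joins the large subunit, stood at 43.5 ± 11.6 TPM in vehicle and 29.6 ± 4.96 TPM with CPC (SD, n = 3). Its log2 fold change with CPC of -0.52 ± 0.23 SE did not pass (adjusted p = 0.354, limma). With AEBDAC and MTOAC it was -0.26 and -0.37, and each treated group overlapped with vehicle. Eif6, which keeps free large subunits apart, was at 0.673 to 6.71 TPM over all libraries.

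Among the eIF4F genes, Eif4h was the only one called. It encodes a cofactor that raises the activity of the eIF4A helicase. It stood at 242, 237 and 232 TPM in vehicle, at 201, 206 and 208 TPM with CPC, at 219, 216 and 209.9 TPM with AEBDAC and at 190.3, 195 and 187 TPM with MTOAC. All 9 treated libraries lay below all of vehicle, and the MTOAC libraries below all others. The log2 fold change with MTOAC was -0.31 ± 0.08 (SE, 95% interval -0.48 to -0.14), adjusted p = 0.04 in limma, and -0.09 relative to the median gene. With CPC it was -0.21 (adjusted p = 0.29) and with AEBDAC -0.14 (adjusted p = 0.357, limma). The call with MTOAC ended under quantile normalization, which gave -0.24 (adjusted p = 0.122), and without any 1 of the 6 libraries (0.064 to 0.101), with 0.0692 without vehicle library 1. Over its 16 alternatives the adjusted p ran from 0.0182 to 0.231. The gene lies at chr5:134619721-134639490 on the minus strand (GRCm38, GENCODE M21).

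The other eIF4F genes did not pass. Eif4e, the cap-binding factor, stood at 167, 122 and 117 TPM in vehicle and at 107.7, 99.9 and 106 TPM with MTOAC, wholly below, with a log2 fold change of -0.35 ± 0.18 SE (adjusted p = 0.268, limma). With CPC and AEBDAC it overlapped with vehicle (-0.19 and -0.03). Eif4g1, the scaffold of eIF4F, stood at 86.0, 102 and 123 TPM in vehicle and at 70.7, 84.0 and 77.3 TPM with MTOAC, again without overlap (-0.40 ± 0.14 SE, adjusted p = 0.105, limma). Eif4b and Eif4g3, a helicase cofactor and a second eIF4G, had the highest mean fold changes in this role (0.23 and 0.28). Eif4b stood at 170.0 to 198 TPM in vehicle and 207 to 258 TPM with AEBDAC, with no overlap (0.27 ± 0.15 SE, adjusted p = 0.337, limma).

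None of the 3 genes of the eIF4A family was called, and differences between them were not tested. Eif4a1, the main helicase, went from 800 ± 107 TPM to 800.1 ± 80.9, 871 ± 74.6 and 775 ± 86.6 TPM (SD, n = 3). Eif4a2 stood at 216 ± 56.4 TPM in vehicle and 219.5 to 226 TPM on average in the treated groups. Eif4a3, part of the exon junction complex rather than of eIF4F, was listed at 120.8, 59.0 and 50.2 TPM in vehicle and at 51.4, 30.4 and 51.4 TPM with CPC. It was listed at 22.9, 5.52 and 31.1 TPM with AEBDAC, all below vehicle, and at 50.1, 10.5 and 109.9 TPM with MTOAC, partly below and partly within the vehicle range. The log2 fold change with AEBDAC was -2.08 ± 0.77 SE and did not pass (adjusted p = 0.179, limma). Replicate 2 was the lowest library of each treated group.

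Eif4ebp1 was the only member called with more than 1 compound. It encodes 4E-BP1, which binds eIF4E and keeps it from eIF4G, and it is a known target of ATF4. It stood at 69.9, 50.5 and 58.9 TPM in vehicle, at 97.2, 96.0 and 104 TPM with CPC, at 116, 100.5 and 147 TPM with AEBDAC and at 132, 110.4 and 187 TPM with MTOAC. Every treated library lay above every vehicle library, and within AEBDAC and MTOAC replicate 3 was the highest. The gene lies at chr8:27260329-27276674 on the plus strand (GRCm38).

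Against vehicle the log2 fold change of Eif4ebp1 was 0.73 ± 0.20 with CPC (SE, 95% interval 0.30 to 1.17), 1.0 ± 0.20 with AEBDAC (0.57 to 1.43) and 1.22 ± 0.20 with MTOAC (0.79 to 1.66). Relative to the median gene these were 0.90, 1.16 and 1.44. It rose with AEBDAC (adjusted p = 0.0404) and MTOAC (adjusted p = 0.0112) and did not pass with CPC (adjusted p = 0.181, limma). The AEBDAC call was lost without any 1 of the 6 libraries (0.0673 to 0.156, with 0.0673 without vehicle library 1), and over its 16 alternatives the adjusted p ran from 0.00234 to 0.156. The MTOAC call held in 15 of 16 alternatives (0.000988 to 0.0923) and was lost in the fit to the MTOAC and vehicle libraries alone. For CPC, where replicate numbers paired the libraries, the adjusted p with the replicate block was 0.05, just short of a call, and 0.0167 with quantile normalization and the block (range over the alternatives 0.0167 to 0.445).

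The level of Eif4ebp1 relative to that of its target shifted in all treated libraries. The ratio of Eif4ebp1 to Eif4e TPM was 0.419, 0.413 and 0.502 in vehicle, 1.05, 0.667 and 0.869 with CPC, 0.916, 0.887 and 0.936 with AEBDAC and 1.22, 1.11 and 1.76 with MTOAC. The treated libraries did not overlap with vehicle, and the smallest p that an exact permutation of 3 against 3 values allows is 0.1. Eif4ebp1 alone already lay apart from vehicle in all of them, so the shift is not particular to Eif4e. Its ratio to Eif4g1 also lay apart, at 0.479 to 0.813 in vehicle and 1.03 or more in treated libraries. Its ratio to Eif4ebp2 overlapped, with 3.44 to 6.35 in vehicle and 5.57, 5.68 and 6.25 in CPC library 2 and AEBDAC libraries 1 and 2. The ratio of Eif4ebp1 to Eif4e averaged 0.445 ± 0.0498 in vehicle and 0.861 ± 0.19 with CPC (SD, n = 3). With AEBDAC it averaged 0.913 ± 0.0248 and with MTOAC 1.36 ± 0.346 (SD, n = 3). The panels for eIF4E and its partners show the ratio above vehicle in every treated library while Eif4e itself overlaps with it with CPC and AEBDAC.

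**Figure D4:**
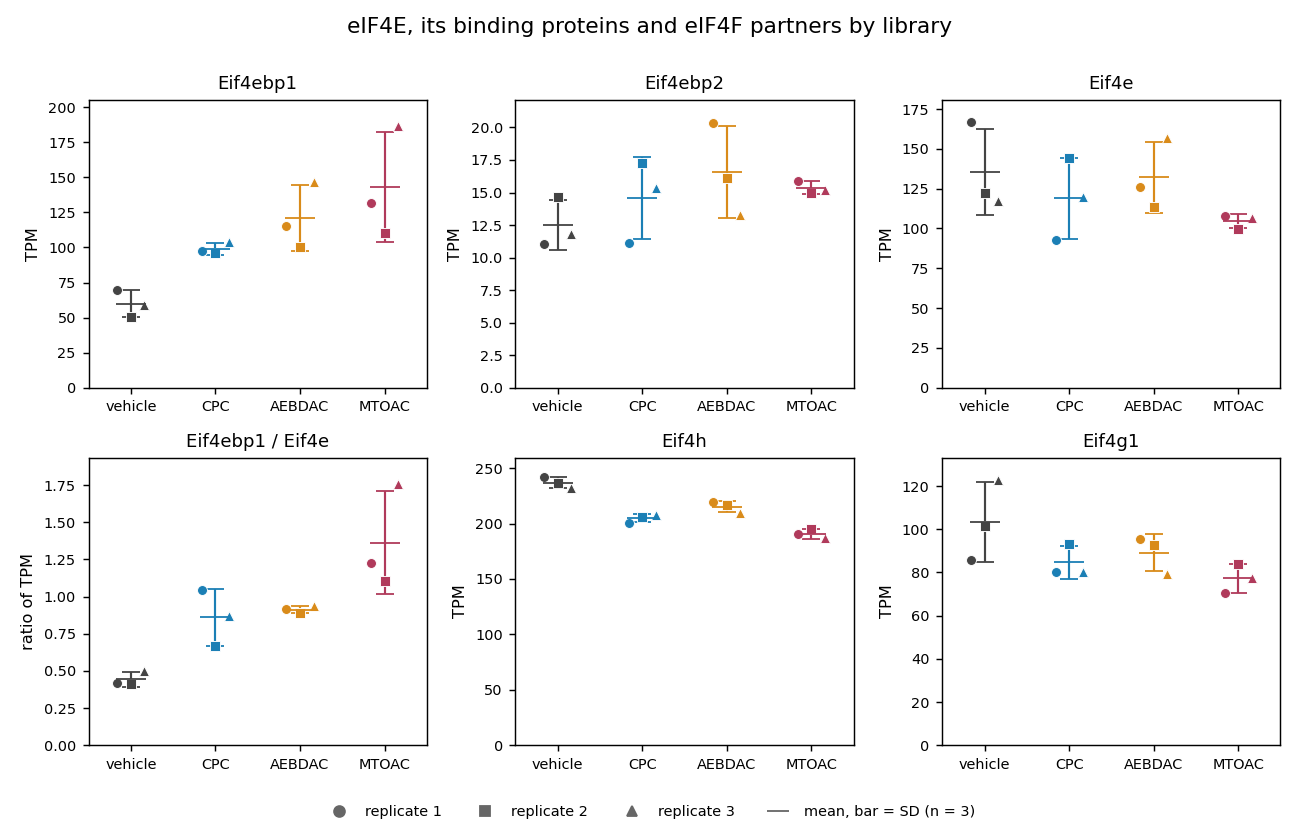
TPM (y axis, from 0) of Eif4ebp1, Eif4ebp2, Eif4e, Eif4h and Eif4g1 and the ratio of Eif4ebp1 to Eif4e TPM, by group (x axis), with 1 symbol per library and the mean ± SD (n = 3). Eif4ebp1 lies above its highest vehicle library (69.9 TPM) and Eif4h below its lowest (232 TPM) in all 9 treated libraries.

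The other genes for eIF4E-binding proteins did not pass. Eif4ebp2, the form most known from the brain, stood at 11.0, 14.7 and 11.8 TPM in vehicle, at 11.1, 17.3 and 15.4 TPM with CPC, at 20.4, 16.1 and 13.3 TPM with AEBDAC and at 15.9, 15.0 and 15.2 TPM with MTOAC. Only the MTOAC libraries lay wholly above vehicle, and the log2 fold changes were 0.19, 0.37 and 0.28 (± 0.20 SE, adjusted p = 0.695, 0.331 and 0.407, limma). Eif4enif1, which carries eIF4E into the nucleus and to P-bodies, stood at 28.6 to 37.7 TPM in vehicle and at 28.7 to 41.5 TPM in the treated libraries, with fold changes of 0.07, 0.07 and 0.06. Eif4ebp3 was listed at 0 to 1.99 TPM over the 12 libraries and overlaps a coding read-through gene model on its own strand.

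The eIF5A genes were not called with any compound (limma, 2 tested). Eif5a went from 1172 ± 51.3 TPM to 1177 ± 83.6, 1253 ± 111 and 1228 ± 117 TPM with CPC, AEBDAC and MTOAC (SD, n = 3), log2 fold changes of 0.00, 0.09 and 0.06 with 95% intervals that lie between -0.23 and 0.32. Eif5a2, its paralog, stood at 5.80 to 6.73 TPM in vehicle and 5.17 to 7.24 TPM in the treated libraries.

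Between compounds limma called 0 of the 49 genes, as it called 0% of all 12009 genes in each of the 3 pairs compared, with p adjusted within each pair. At an unadjusted p under 0.05, 0 members passed for AEBDAC against CPC (1.76% of all genes), 3 for MTOAC against CPC (3.74%; Eif2b1, Eif3i and Eif4ebp1) and 3 for MTOAC against AEBDAC (2.56%; Eif2b1, Eif3i and Eif4h). For Eif4ebp1 the difference was 0.27 (95% interval -0.17 to 0.70) for AEBDAC minus CPC, 0.49 (0.06 to 0.92) for MTOAC minus CPC and 0.22 (-0.21 to 0.66) for MTOAC minus AEBDAC, each with an adjusted p of 1. For Eif3i MTOAC minus CPC was 0.74 (0.39 to 1.10) and MTOAC minus AEBDAC 0.69 (0.33 to 1.05). For Eif4h MTOAC minus AEBDAC was -0.17 (-0.34 to -0.00). The compounds with and without an aromatic ring therefore did not differ past the threshold for any member, and intervals of this width do not show that they act alike. Doses differed, each being the IC75 of its own compound.

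Genes around these factors were read from 5 lists, chosen with earlier results of these data known, so that their counts are no independent evidence of a direction. Of all tested genes, 0.0333% were called higher with CPC, 0.391% with AEBDAC and 0.791% with MTOAC. In the eIF2 phosphorylation circuit (17 of 19 tested), 1 gene rose with CPC and 2 with AEBDAC and with MTOAC, and 0 fell. These were Trib3, a pseudokinase induced by ATF4, with all 3 compounds (log2 fold changes 2.18, 2.73 and 2.58, adjusted p = 0.0246, 0.00279 and 0.00228, limma), and Atf4 with AEBDAC (1.29, adjusted p = 0.0207) and MTOAC (1.07, adjusted p = 0.0162, limma). Both are known as outputs of the circuit, but their mRNA levels do not show whether eIF2 was phosphorylated, which was not tested. The phosphatase subunits and cofactors in the list did not pass, and the list's median of 0.09, -0.02 and 0.09 stood above the median gene.

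In the list for mTORC1 and eIF4E control (22 of 23 tested), limma called 0 with CPC, 0 with AEBDAC and 2 with MTOAC (1 higher, 1 lower). With MTOAC, 0.791% of all tested genes were called higher and 5.75% lower, so single lower calls in lists of this size say little about a list. Sesn2, a stress-induced inhibitor of mTORC1, went from 63.2 ± 14.9 to 118 ± 18.4 TPM with MTOAC (SD, n = 3; 0.91 log2, adjusted p = 0.0359, limma), and stood at 127 ± 25.3 TPM with AEBDAC (adjusted p = 0.0525, limma). Rps6kb2, a ribosomal S6 kinase downstream of mTORC1, fell with MTOAC by 1.18 on the log2 scale (adjusted p = 0.0402, limma), from 32.0, 13.0 and 15.0 to 7.58, 5.82 and 9.76 TPM. Vehicle library 1 was high for it. In the list for elongation and termination (12 of 13 tested), Gspt2, a termination factor, fell with MTOAC by 0.80 on the log2 scale (adjusted p = 0.0226, limma), and no other call was made with any compound. No gene was called by limma with any compound among 18 other initiation and recycling proteins or 10 mitochondrial translation factors. The medians of the first list were -0.28 with CPC, -0.31 with AEBDAC and -0.24 with MTOAC, which is -0.11, -0.15 and -0.02 relative to the median gene. Those of the mitochondrial list were -0.26, -0.23 and -0.22, or -0.09, -0.07 and 0.0 relative to it.

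The spread between libraries differed greatly between members and sets which changes could be seen. For 30 of the 49 genes all 12 libraries lay within 2-fold of each other. For 12, among them Eif2s2, Eif2b1, Eif2b2, Eif4a3 and Eif1, the libraries of at least 1 group spanned more than 3-fold. The median half-width of the 95% interval was 0.36 log2 for the members and 0.55 for all tested genes. Vehicle library 1 held the highest value of 20 of the 49 genes (40.8%), as it did of 41.2% of all tested genes, among them Eif2ak1, Eif2ak2, Eif4e and Eif4h. Values without vehicle library 1 are given above for Eif2ak1 and Eif4h. MTOAC library 3 held the highest value of 6 of the 49 (12.2%, beside 12.5% of all tested genes), Eif4ebp1 among them.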

How the data were processed

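The deposited files hold TPM by gene symbol, 1 file for each library. The submitters' processing notes name Salmon and the build mm10; the version of Salmon is not given in the sources used here, nor is the annotation. Per the labels' protocols, poly(A) RNA gave paired reads of 150 bp. TPM are relative within a library and keep no depth. Deposited totals ran from 772637 to 797758 TPM, and no 2 libraries were identical.

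Tests used limma 3.58.1 (R 4.3.3; trend and robust moderation) on log2(TPM + 1) of every gene that reached 1 TPM in 3 or more libraries, a scale that understates changes of low genes. All 12 libraries entered 1 fit of 4 group means without covariate. P-values are two-sided and adjusted by Benjamini and Hochberg over 12009 genes per comparison. The design provided for counts or TPM. The procedure was run on simulated data in which genes varied independently and no library stood apart as vehicle library 1 did. That run therefore says nothing about such a library. Alternatives changed the pseudocount, filter, scaling, moderation, replicate block, groups fitted and libraries.

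Genes and lists were chosen with earlier results of these data known. Named genes are all called ones, all kinases, eIF2 and eIF2B subunits and eIF4E-binding proteins, and in each other role the 2 highest and 2 lowest by mean fold change and the most abundant in vehicle, 34 in all. Others are named for levels or contrasts after their values were seen. Replicate numbers come from the titles. By correlated deviations (0.339, 0.305 and 0.234 for numbers 1 to 3) they paired CPC with vehicle, and likewise AEBDAC with CPC and MTOAC with AEBDAC, where every correlation was over 0.1. They did not in the other 3 comparisons. Coordinates are from GENCODE M21 (GRCm38).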

Additional observations from a re-analysis of the deposited data

How the results depend on the processing

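TPM without depth and 3 libraries per group limit what could be called. With AEBDAC the number of members called, 1, became 0 without the filter, without trend and robust moderation, with only the 2 groups in the fit and without any 1 library (0 to 0). With MTOAC the 2 calls became 1 with quantile normalization, 1 without trend and robust moderation, 0 with only the 2 groups in the fit, and 1 to 1 without any 1 library. The cause was not tested. Between compounds the count was 0 in all settings run.

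With the replicate block 0 members were called with CPC, 2 with AEBDAC (1 higher, 1 lower, Eif2ak1) and 5 with MTOAC (1 higher, 4 lower, with Eif2ak1, Eif2ak2, Eif2b1 and Eif4h lower). Quantile normalization with the replicate block called 1, 5 (4 higher, 1 lower) and 4 (3 higher, 1 lower). Replicate numbers paired the libraries by the rule for CPC and vehicle but not for AEBDAC or MTOAC and vehicle. The block nevertheless raised the calls over all genes in each comparison. They went from 8 to 184 with CPC, from 153 to 1072 with AEBDAC and from 785 to 1904 with MTOAC. What a replicate number marks is not stated in the labels.

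Of 102 fold changes of the genes named by the rule, 99 were not called, and 38 of these changed sign under at least 1 alternative without passing. Of 1620 alternative values, 20 lost a call (3 fold changes), 10 gained one (8) and 0 reversed a called one. The median of the members relative to the median gene (0.06, 0.10 and 0.19 with CPC, AEBDAC and MTOAC) was 0.02, 0.07 and 0.11 with quantile normalization. Without the filter on low values it was -0.05, -0.01 and 0.04, where the median gene itself lay at -0.06, -0.05 and -0.07, so its sign turned for CPC and AEBDAC. More genes were tested in that setting, 20884 in place of 12009.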

Other observations

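Of the 10 pseudogene symbols, which were left out of the comparisons, 1 had a level of its own. Eif4a-ps4, a pseudogene of the helicase eIF4A, had 320, 173 and 29.2 TPM in the vehicle libraries, replicates 1 to 3. With CPC it was listed at 207, 175 and 147 TPM, with AEBDAC at 186, 64.1 and 104 TPM and with MTOAC at 220.3, 146 and 251 TPM. It spread more widely within vehicle than Eif4a1 did, and how reads were divided between such copies and the parent genes is not known, so the levels of Eif4a1 and its relatives carry that uncertainty. The 9 other pseudogene symbols were listed at 0 in most or all libraries, with a highest value of 4.20 TPM for Eif1-ps1.

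The transcripts of all 49 genes together took up much the same share of each library. They summed to 6979 ± 798 TPM in vehicle, 6732 ± 257 TPM with CPC, 7041 ± 416 TPM with AEBDAC and 7187 ± 643 TPM with MTOAC (SD, n = 3), differences smaller than the spread between vehicle libraries. The highest sums were those of vehicle library 1 (7894 TPM) and MTOAC library 3 (7909 TPM).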
